A study of Homo sapiens with 25 samples.

Results

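The 7 genes described here, HMGA1, HMGA2, LIN28B, ARID3B, IGF2BP2, IGF2BP3 and NRAS, encode mRNAs that the let-7 microRNAs repress and that IGF2BP proteins are known to bind. They were picked by name out of 63086 genes in each count table, and 6 of the 7 carried enough reads to be tested among 8734 protein-coding genes. let-7 is made in most differentiated cells, where it pairs through its seed with sites in the 3′ UTR of its targets and lowers their stability and translation. HMGA1, HMGA2, LIN28B, IGF2BP1 and IGF2BP3 are active in the embryo, fall silent or low in most adult tissues and often return in tumours, hence the word oncofetal. LIN28B protein blocks the maturation of let-7, and IGF2BP1 can shield let-7 targets in ribonucleoprotein granules, so that these genes form a circuit around the microRNA.

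The data were RNA immunoprecipitation sequencing (RIP-seq) of mCherry-tagged IGF2BP1 from HCT116 cells, a human colorectal carcinoma line without IGF2BP1 of its own. Every line with the fusion also carried IGF2BP2 KO, IGF2BP3 KO and Tet-OsTIR1-PURO, with the fusion delivered by lentivirus and the cells sorted within a narrow range of mCherry. The fusion was wild-type IGF2BP1, the phosphomimetic mutants S181E (in linker 1) or Y396E (in linker 2), or RQ, in which 4 arginines of linker 1 were replaced (R167Q, R168Q, R174Q and R178Q). Cells received PBS (control) or 500 µM sodium arsenite, an oxidative stressor, for 2 h. Each line had 3 libraries per treatment, except RQ in arsenite with 2, giving 23 mCherry libraries. Parental HCT116 cells, which carry no fusion and are labelled with no knockout, gave 1 background library per treatment. The study asked whether mutations that mimic phosphorylation change which RNAs IGF2BP1 holds, with and without stress. The replicates came from separately grown dishes of 1 line per genotype, so genotype and line cannot be told apart.

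Total counts per mCherry library lay between 22246381 and 60273548, against 18942497 for parental arsenite and only 1238013 for parental control, which makes the latter a coarse background. Levels are given in CPM, each gene's protein-coding counts relative to the library total, adjusted with TMM factors over all 25 libraries, and errors are SD over libraries. A gene was called when edgeR's quasi-likelihood test across all 8734 genes gave a Benjamini-Hochberg adjusted p under 0.05 and the higher level exceeded the lower by more than 20%. A RIP level reflects both binding and the amount of the mRNA in the cell, and these cannot be told apart without the RNA-Seq libraries, which were not analysed here. Likewise, a level shared by fewer cells cannot be told apart from less RNA per cell. Of 6 epithelial markers, EPCAM, CDH1, KRT8, KRT18 and KRT19 were present, while VIL1 stayed at or below 0.738 CPM. Markers of fibroblasts, leukocytes, endothelium and glia summed to 1.58 to 13.5 CPM in the mCherry libraries, most of it COL1A1, against 24.3 and 32.8 CPM in the parental ones, and COL1A2 and PTPRC had no read in any mCherry library. No read was counted on IGF2BP1 in either parental library. The bait mRNA averaged 66.4 CPM in wild-type control and 40.1 CPM in wild-type arsenite libraries. It was higher than wild-type in Y396E (93.0 and 52.1 CPM) and RQ (111 and 80.6 CPM), and close to it in S181E (66.3 and 41.4 CPM). These too are RIP levels and do not give the amount of bait in the cell. The part of the bait level in the results below was not tested.

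All 9 mature let-7 and miR-98 sequences found in RefSeq share 1 seed. They come from 12 hairpin loci and are each 22 nucleotides long. A few are shown 5′ to 3′ because every site search below rests on the common letters. Capitals mark the seed, bases 2 to 8 (RefSeq, GRCh38.p14).
hsa-let-7a-5p: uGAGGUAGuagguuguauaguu
hsa-let-7b-5p: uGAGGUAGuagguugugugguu
hsa-let-7g-5p: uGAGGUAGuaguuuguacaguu
hsa-miR-98-5p: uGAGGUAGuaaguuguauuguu

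The 3′ UTR of the canonical GENCODE transcript of each gene was searched for the reverse complement of that seed, on the transcript's strand only. An 8-base match is CTACCTCA, a 7-base match to bases 2 to 8 is CTACCTC without the final A, and the other 7-base match is TACCTCA without the first C. Each site was counted once, under its longest form. All 7 genes held at least 1 such match, while 15.83% of 19538 protein-coding genes with a 3′ UTR did, and 4 of the 7 held an 8-base match, against 3.752% of all. HMGA2 had 7 matches in 2999 bases, the most of the group, followed by LIN28B with 5 in 4549 bases and ARID3B with 5 in 2357. IGF2BP2 had 3, NRAS had 2, and IGF2BP3 and HMGA1 had 1 each. The median 3′ UTR of all genes was 1064 bases, shorter than any of these 7, and a longer stretch holds more matches of any short motif. The genes were listed as let-7 targets to begin with, so a high count is no separate finding. A match is a run of letters and not a measured site.

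The 8-base matches, and for genes without one a match to bases 2 to 8, are shown with the bases upstream. Coordinates are hg38, and capitals mark the letters that match.
HMGA2 (chr12:65963293-65963320, plus strand): ggggcgccaacgttcgatttCTACCTCA
LIN28B, first (chr6:105078805-105078834, plus strand): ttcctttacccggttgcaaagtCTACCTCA
LIN28B, second (chr6:105081414-105081443, plus strand): ttactctgtttacagcaaaaggCTACCTCA
IGF2BP2 (chr3:185644220-185644249, minus strand): cgagaaaaacacacagaagaagCTACCTCA
IGF2BP3 (chr7:23311795-23311824, minus strand): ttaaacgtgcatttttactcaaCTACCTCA
HMGA1 (chr6:34245821-34245850, plus strand): tccatttttcctctgttcacaaaCTACCTC
NRAS (chr1:114707902-114707931, minus strand): tatttgagaagttctcagaataaCTACCTC
ARID3B (chr15:74598093-74598122, plus strand): aatgtttatatttcaataaacctCTACCTC
The HMGA2 and first LIN28B matches lie close to the stop codon, at bases 21 and 44 of the 3′ UTR. The ARID3B match lies at base 2342 of 2357, next to the end of the transcript. The bases beside the matches differ from gene to gene.

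**Figure D1:**
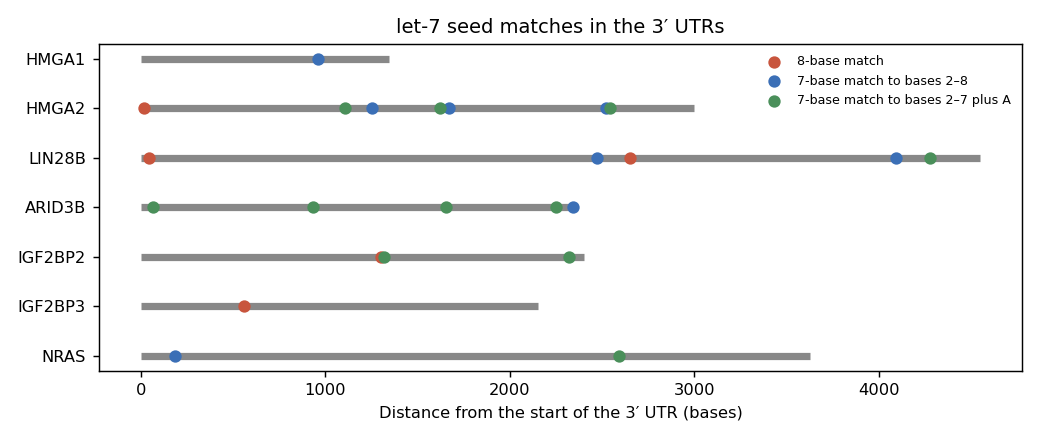
Positions of let-7 seed matches along the 3′ UTR of the 7 genes, in bases from the start of the UTR; grey bars span the UTR and colours give the kind of match. HMGA2 carries 7 matches spread from base 21 to base 2541, whereas HMGA1 and IGF2BP3 carry 1 each.

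HMGA1 and HMGA2 are small chromatin proteins whose AT-hooks bend DNA in the minor groove. HMGA1 (ENSG00000137309.21, chromosome 6, 34236873 to 34246231, plus strand) was among the most abundant mRNAs of every pull-down. It took 2.07 to 4.02% of the protein-coding counts of an mCherry library, and per kilobase of exon it ranked 3rd to 8th of 20044 protein-coding genes in each of the 23 libraries. In the parental libraries it ranked 28th and 29th, at 1606 CPM in control and 1680 CPM in arsenite. The wild-type control libraries held 45318, 42477 and 36031 CPM, and the wild-type arsenite libraries held 27459, 25923 and 25929 CPM. The mean was 41275 ± 4759 CPM (SD, n = 3) in control, 24.6-fold over parental arsenite, and 26437 ± 885 CPM (SD, n = 3) in arsenite, 15.7-fold over it. Processed copies of HMGA1 elsewhere in the genome drew few reads: the 8 annotated pseudogenes HMGA1P1 to HMGA1P8 together had 3664 counts over the 23 libraries, which is 0.0250% of the 14634619 counts on HMGA1. Reads that fit both HMGA1 and a copy are left out by the counter, so the printed HMGA1 level is too low by an unknown amount.

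HMGA2 (ENSG00000149948.14, chromosome 12, 65824460 to 65966291, plus strand), a long-known IGF2BP1 mRNA, held 2861, 2776 and 3398 CPM in the wild-type control libraries. In arsenite they held 1671, 1433 and 1610 CPM. The S181E control libraries held 2768, 2351 and 2868 CPM, and RQ control libraries 3490, 3138 and 3711 CPM, both of which overlapped the wild-type range. The Y396E control libraries stood apart, at 1663, 1422 and 1738 CPM, and the 3 Y396E arsenite libraries were the lowest mCherry libraries of all, at 664, 595 and 721 CPM. S181E in arsenite lay at 1385, 1165 and 1347 CPM and RQ in arsenite at 1848 and 1568 CPM. The order of group means ran from RQ control through wild-type control and S181E control, which overlapped their neighbours, to a middle tier of RQ arsenite, Y396E control and wild-type arsenite that also overlapped, then S181E arsenite and last Y396E arsenite, each below every library of the group before it. The 2 parental libraries held 58.7 CPM from 87 reads (95% Poisson interval 47.0 to 72.4 CPM) and 176 CPM from 4065 reads. The interval covers counting error only. HMGA2-AS1, on the opposite strand, reached at most 7 counts in a library, and the counting kept strands apart.

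**Figure D2:**
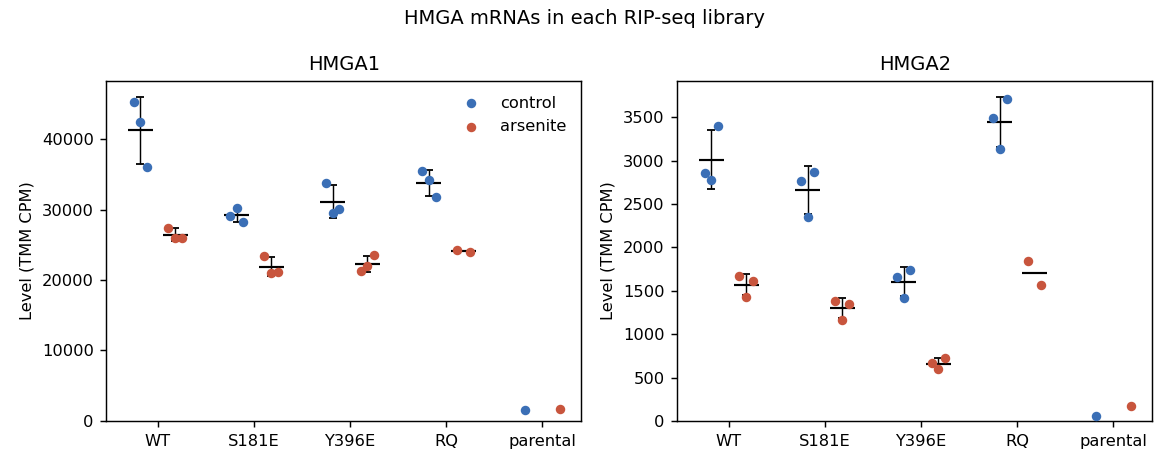
Levels of HMGA1 and HMGA2 mRNA (TMM CPM, linear axes from 0) in every library, by line and treatment; dots are libraries, horizontal bars are means and error bars are SD over 3 libraries (RQ arsenite has 2 libraries and no error bar, parental 1). HMGA2 in Y396E sits below every wild-type library of the same treatment, at 1422 to 1738 CPM in control and 595 to 721 CPM in arsenite.

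The other genes lay nearer to the background. With the deeper parental arsenite library as the background for both treatments, the wild-type control level was 3.75-fold over it for NRAS, the small GTPase of the RAS family, 1.81-fold for IGF2BP3, 1.45-fold for IGF2BP2 and 1.27-fold for ARID3B, an AT-rich DNA-binding factor. Over all 8734 genes the median of this ratio was 1.13, and HMGA1 and HMGA2 ranked 75th and 124th from the top with 24.6- and 17.1-fold. In wild-type and in S181E control 11.7% of all tested genes were at least 4-fold over it, in Y396E control 10.2% and in RQ control 11.5%. Both HMGA genes were among them in all 4 lines, and of the others only NRAS in S181E, at 4.93-fold. In arsenite the wild-type ratios were 15.7 for HMGA1, 8.93 for HMGA2, 2.00 for NRAS, 1.26 for IGF2BP2, 1.14 for IGF2BP3 and 0.592 for ARID3B, and 9.18% of all genes reached 4-fold. HMGA2 in Y396E arsenite, at 3.75-fold, fell short of 4-fold, where 6.14% of all genes reached it, while S181E stood at 7.38 (8.24% of genes past 4-fold) and RQ at 9.71 (8.36%). ARID3B was below the parental arsenite level in all 11 mCherry arsenite libraries. Against the shallow parental control library the wild-type control ratios were 51.3 for HMGA2, 25.7 for HMGA1, 15.1 for IGF2BP3 (24 parental reads), 4.36 for NRAS, 1.91 for IGF2BP2 and at least 14.7 for ARID3B, which had no parental read and was set at the floor of 3 counts. With total counts in place of TMM all these ratios were smaller: the wild-type control ratios were 22.1 for HMGA2, 11.1 for HMGA1, 6.51 for IGF2BP3, 1.88 for NRAS, 0.820 for IGF2BP2 and at least 6.35 for ARID3B, and the wild-type arsenite ratios 5.43, 9.56, 0.690, 1.22, 0.764 and 0.359. Only the HMGA ratios stayed above 4 in both treatments. The parental cells are not edited, so the ratios for IGF2BP2 and IGF2BP3 also compare edited with unedited genes.

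**Figure D3:**
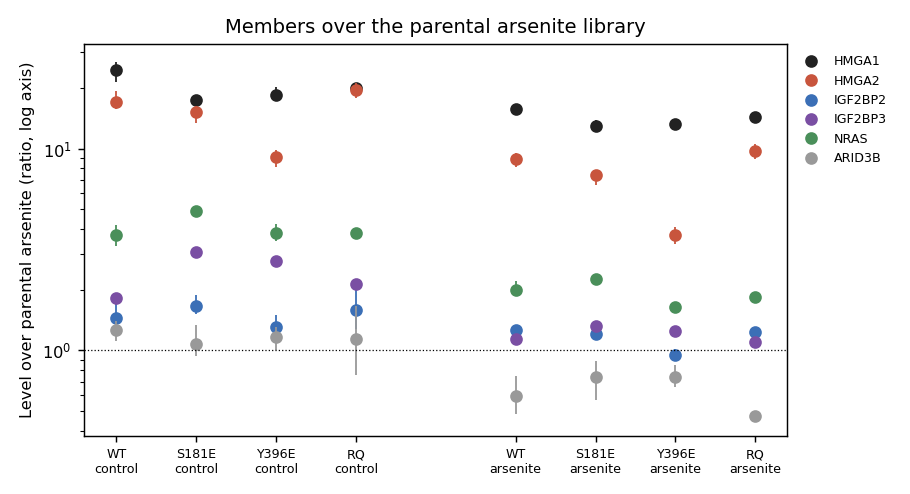
Mean level of the 6 measured genes over the level of the parental arsenite library, as a ratio on a log axis, for each line and treatment; vertical lines span the lowest to the highest library, and the dotted line marks equality. HMGA1 and HMGA2 lie highest in every group, HMGA2 drops to 3.75 in Y396E arsenite, and ARID3B lies under 1 in all 4 arsenite groups.

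LIN28B (ENSG00000187772.8, chromosome 6, 104940866 to 105083332, plus strand) was all but absent. It had no read in 9 of 23 mCherry libraries, among them all 3 wild-type control libraries, and at most 14 reads in any of the others, a level no higher than 0.647 CPM. Neither parental library held a read, so that with a floor of 3 counts its level there was at most 2.02 CPM (control) or 0.130 CPM (arsenite). It did not pass the filter of more than 10 CPM in at least 11.5 of 23 libraries and was not tested. Its paralog LIN28A, at 0.773 CPM or less, was as low. The antisense gene LIN28B-AS1 had reads in 1 mCherry library, 5 in all.

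HMGA2 was lower than wild-type in Y396E in both treatments, by more than any of the 6 genes differed from wild-type in another mutant. In control the Y396E mean was 1607 ± 165 CPM against 3011 ± 337 CPM in wild-type (SD, n = 3 each), or 53.4%, with a log2 fold change of −0.89 (standard error 0.12, edgeR adjusted p = 7.6e-06). In arsenite it was 660 ± 63.0 against 1571 ± 124 CPM (SD, n = 3 each), or 42.0%, with a log2 fold change of −1.22 (standard error 0.12, edgeR adjusted p = 8.9e-08). HMGA2 had the 163rd lowest log2 fold change of 8734 genes in the first comparison and the 64th lowest in the second. HMGA2 in Y396E was also below the other mutants: the log2 fold change to S181E was −0.72 in control and −0.94 in arsenite (edgeR adjusted p = 0.0011 and 2.5e-05), and to RQ it was −1.08 and −1.35 (edgeR adjusted p = 6.4e-07 and 1.3e-07). All 6 differences passed under every alternative scaling, filter, test and left-out library. The excess of the arsenite difference over the control difference, an interaction of −0.33 (standard error 0.17), did not pass (edgeR adjusted p = 0.30).

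In neither S181E nor RQ did HMGA2 differ from wild-type beyond the threshold in the main model. S181E gave log2 fold changes of −0.17 in control and −0.28 in arsenite (edgeR adjusted p = 0.34 and 0.18), and in RQ it was 0.20 and 0.13 (edgeR adjusted p = 0.35 and 0.82). The standard errors were 0.12 to 0.13. Same-numbered S181E and wild-type libraries deviated together in arsenite, and once the number entered the model as a block, both HMGA2 (−0.28, edgeR adjusted p = 0.0039) and HMGA1 (−0.28, edgeR adjusted p = 0.029) were called lower in S181E. HMGA2 was also called lower in S181E arsenite with only the groups compared (−0.28, edgeR adjusted p = 0.019). With total counts it was called higher in RQ control (0.29, edgeR adjusted p = 0.0497).

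HMGA1 was lower than wild-type under control conditions in both phosphomimetic lines. The S181E control libraries held 29078, 30298 and 28252 CPM and the Y396E control libraries 33792, 29474 and 30031 CPM, all below the lowest wild-type library at 36031 CPM. The log2 fold change was −0.49 (standard error 0.11, edgeR adjusted p = 0.0034) in S181E and −0.39 (standard error 0.11, edgeR adjusted p = 0.011) in Y396E. The RQ control libraries, at 35459, 34153 and 31752 CPM, were also below every wild-type one, but the log2 fold change of −0.29 did not pass (edgeR adjusted p = 0.13). DESeq2's Wald test did call HMGA1 lower in RQ control (−0.31, DESeq2 adjusted p = 0.0074). So did the replicate block (−0.29, edgeR adjusted p = 0.027). Same-numbered libraries of these groups correlated at 0.09 to 0.35, just short of the rule for pairing given below. Neither phosphomimetic call held when other groups were left out of the model (edgeR adjusted p = 0.073 and 0.14), and the Y396E call also with total counts and without wild-type control replicate 1 (log2 fold changes of −0.13 and −0.32). In arsenite the differences were smaller and none was called in the main model. The log2 fold changes were −0.28 in S181E, −0.22 in Y396E and −0.12 in RQ. Besides the replicate block given above, DESeq2's Wald test called HMGA1 lower in S181E arsenite (−0.27, DESeq2 adjusted p = 0.021). So did a model of only the groups compared (−0.27, edgeR adjusted p = 0.025). In Y396E arsenite it was called lower with TMM from genes not above the parental level (−0.43, edgeR adjusted p = 0.011). Between Y396E and S181E, which differed in HMGA2, no difference in HMGA1 was detected (log2 fold change 0.10 in control and 0.06 in arsenite, edgeR adjusted p = 0.60 and 0.73).

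**Figure D4:**
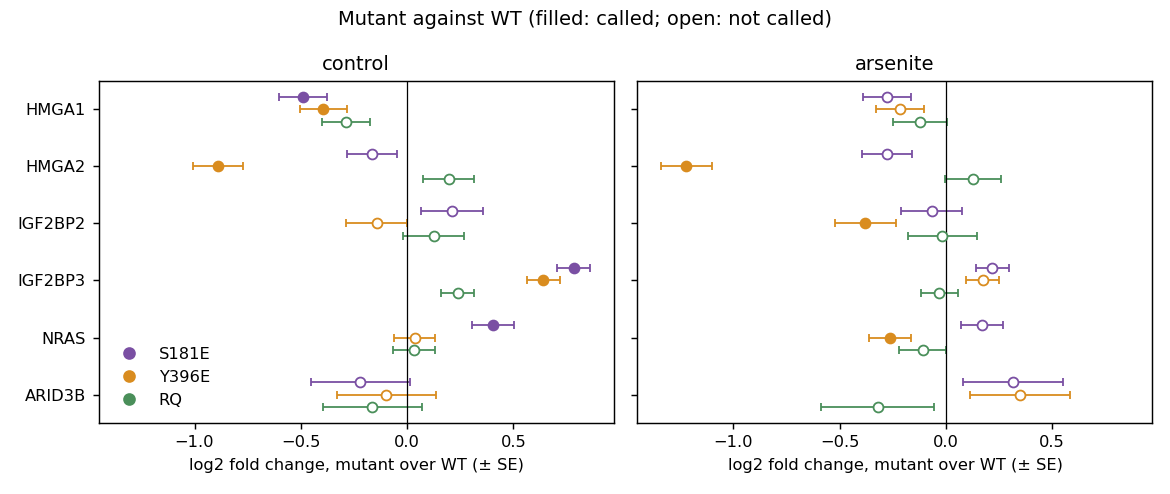
Log2 fold change of each mutant over wild-type for the 6 tested genes, in control (left) and arsenite (right), from the edgeR model; horizontal bars are standard errors, filled points were called and open points were not. HMGA2 in Y396E stands farthest to the left in both panels, at −0.89 and −1.22, and IGF2BP3 in S181E and Y396E farthest to the right in control, at 0.78 and 0.64.

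IGF2BP3 (ENSG00000136231.14, chromosome 7, 23310209 to 23470491, minus strand), a paralog of the bait that was knocked out in these lines, ran the other way. Reads on it are RNA from the edited gene and give no information on protein. The wild-type control libraries held 227, 247 and 261 CPM, the S181E control libraries 425, 401 and 429 CPM and the Y396E control libraries 394, 363 and 376 CPM, with no overlap between wild-type and either mutant. The log2 fold change was 0.78 (standard error 0.08, edgeR adjusted p = 2.8e-07) in S181E and 0.64 (standard error 0.08, edgeR adjusted p = 2.2e-06) in Y396E. RQ control, at 281, 279 and 305 CPM, lay above wild-type without passing (0.24, edgeR adjusted p = 0.068), and Y396E exceeded RQ by 0.40 (edgeR adjusted p = 0.00062). In arsenite the spread between lines narrowed. Wild-type lay at 162, 152 and 147 CPM and RQ at 148 and 151 CPM. S181E, at 180, 176 and 182 CPM, and Y396E, at 168, 173 and 169 CPM, lay above every wild-type library. None of the differences of S181E, Y396E and RQ from wild-type was called in the main model (edgeR adjusted p = 0.098, 0.091 and 0.94). With total counts IGF2BP3 was called higher in S181E arsenite (0.38, edgeR adjusted p = 0.00062) and Y396E arsenite (0.39, edgeR adjusted p = 0.00012). Total counts also called it higher in RQ control (0.33, edgeR adjusted p = 0.0035). The lines differed in their response to arsenite, with an interaction of −0.57 (standard error 0.11, edgeR adjusted p = 0.033) for S181E and −0.47 (standard error 0.11, edgeR adjusted p = 0.019) for Y396E, while 0.389 and 2.85% of all genes had a called interaction. In RQ no member had one by edgeR (0.0687% of all genes), 1 member passed an unadjusted p under 0.05 (9.66% of all genes) and DESeq2 called 0. Both interactions kept their sign under every alternative and lost the call under several, as given in the closing section. Whether the edited IGF2BP3 gene differs between lines was not tested.

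IGF2BP2 (ENSG00000073792.16, chromosome 3, 185643130 to 185825042, minus strand), the second knocked-out paralog, differed less. Its wild-type control libraries held 213, 173 and 247 CPM, and the 3 mutants overlapped that range. In arsenite the Y396E libraries held 134, 131 and 148 CPM, all below the wild-type ones at 184, 174 and 190 CPM, a log2 fold change of −0.38 (standard error 0.14, edgeR adjusted p = 0.046). The call was lost under 9 of 14 alternatives, among them DESeq2 size factors and leaving out any 1 of the 6 libraries compared. Between Y396E and S181E in control, groups whose replicate numbers paired, the difference of −0.35 (edgeR adjusted p = 0.11) became a call with the number as a block (−0.36, edgeR adjusted p = 0.0070).

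NRAS (ENSG00000213281.5, chromosome 1, 114704469 to 114716771, minus strand) was highest in S181E. The S181E control libraries held 352, 369 and 357 CPM, above all wild-type control libraries at 241, 273 and 306 CPM, with a log2 fold change of 0.40 (standard error 0.10, edgeR adjusted p = 0.0050). This call was lost when other groups were left out of the model (edgeR adjusted p = 0.12). Y396E control, at 268, 253 and 310 CPM, and RQ control, at 283, 262 and 293 CPM, overlapped wild-type. In arsenite the Y396E libraries held 116, 118 and 123 CPM, below the wild-type ones at 161, 140 and 136 CPM. The log2 fold change of −0.26 (standard error 0.10, edgeR adjusted p = 0.041) lies at the edge of the 20% threshold, and the call was lost under 10 of 14 alternatives, among them leaving out wild-type replicate 1 or 2 or any 1 of the 3 Y396E libraries. Y396E was below S181E in both treatments, by −0.37 in control and −0.43 in arsenite on the log2 scale (edgeR adjusted p = 0.019 and 0.0057), of which the arsenite difference held under every alternative and the control difference was lost when other groups were left out of the model and without each of S181E replicate 3, Y396E replicate 1 and Y396E replicate 2.

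ARID3B (ENSG00000179361.18, chromosome 15, 74541206 to 74598131, plus strand) was the weakest of the tested genes and was called in no comparison between lines in the main model. Its wild-type control libraries held 30.2, 26.3 and 33.1 CPM, and the RQ control libraries alone spanned 17.8 to 39.2 CPM. Its differences between lines lay between −0.32 and 0.67 on the log2 scale, with standard errors of 0.23 to 0.27. The largest, Y396E over RQ in arsenite, gave an adjusted p of 0.089 by edgeR with 2 RQ libraries. It was called with total counts (0.81, edgeR adjusted p = 0.025) and with only the groups compared (0.66, edgeR adjusted p = 0.00069). The replicate block also called it (0.51, edgeR adjusted p = 0.035), though the numbers did not pair these groups. Y396E over wild-type in arsenite was called with total counts (0.57, edgeR adjusted p = 0.039).

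**Figure D5:**
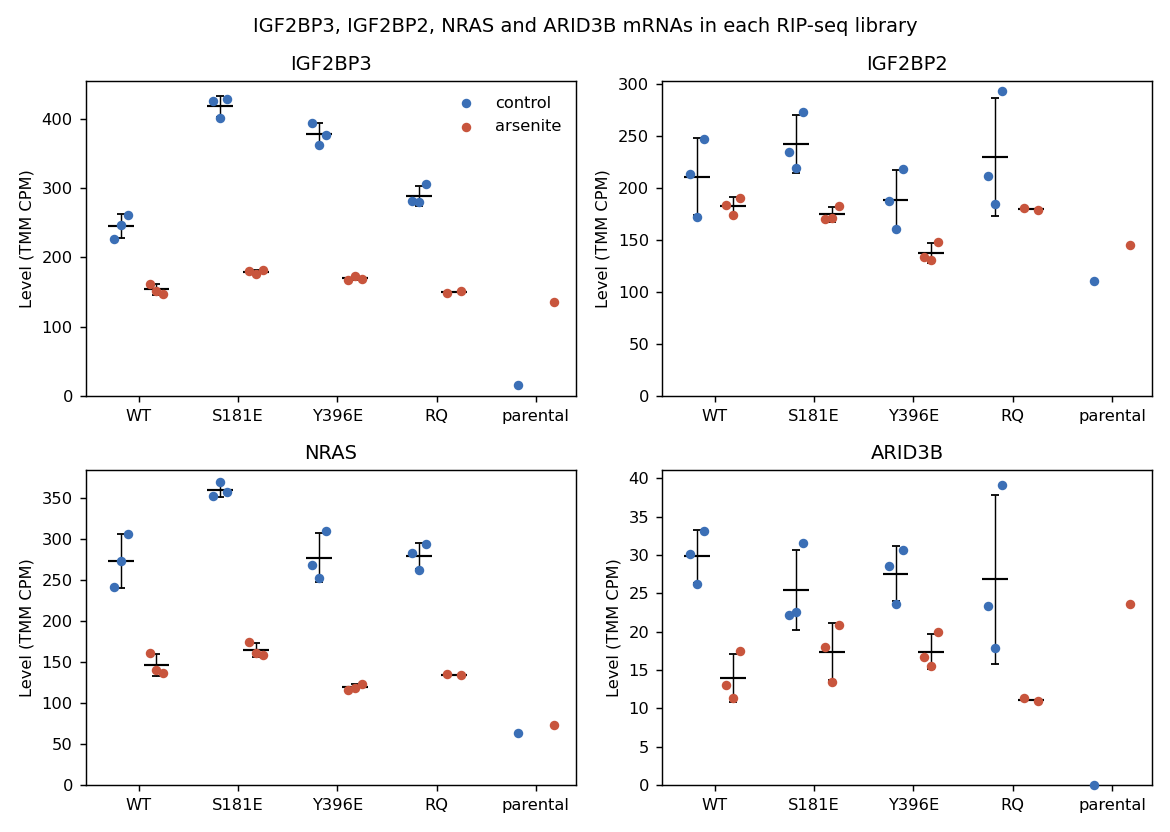
Levels of IGF2BP3, IGF2BP2, NRAS and ARID3B mRNA (TMM CPM, linear axes from 0) in every library, by line and treatment; dots are libraries, horizontal bars are means and error bars are SD over 3 libraries. IGF2BP3 differs between lines in control (227 to 429 CPM) far more than in arsenite (147 to 182 CPM), and the parental control level of ARID3B is 0.

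Counted over the group, S181E control had 1 of 6 tested genes lower and 2 higher than wild-type, where 20.8% of all tested genes were called, 8% lower and 12.8% higher. Y396E control had 2 lower and 1 higher, where 28.9% of all genes were called, 12.7% lower and 16.2% higher. Y396E arsenite had 3 lower and 0 higher, where 32.5% were called, 19.4% lower and 13.1% higher. The split turned with the scaling: with total counts Y396E had 1 lower and 2 higher in each treatment, where NRAS (control) and IGF2BP3 and ARID3B (arsenite) joined the higher genes. S181E arsenite had no member called by edgeR, with 7.53% of all genes called (5.34% lower, 2.2% higher). RQ control likewise had none, with 6.34% called (2.83% lower, 3.51% higher), and RQ arsenite none, with 0.504% called (0.218% lower, 0.286% higher). At an unadjusted p under 0.05 these 3 comparisons held 3, 2 and 0 members, where 19.7, 21.8 and 9.64% of all genes passed, and DESeq2 called 1, 1 and 0. Against S181E, Y396E had 2 members lower in each treatment, where 10.1% of all genes were called in control (6.51% lower, 3.6% higher) and 11.8% in arsenite (9.22% lower, 2.59% higher). Against RQ, Y396E had 1 lower and 1 higher in control, where 24.7% were called (12% lower, 12.7% higher), and 1 lower in arsenite, where 16.3% were called (10.9% lower, 5.45% higher); with total counts the latter became 1 lower and 2 higher. The libraries of the 2 groups did not overlap for 3 members in S181E control and 3 in Y396E control, against 26.1 and 36.2% of all genes, and for 2 in RQ control, against 15.2%. In arsenite they did not overlap for 3 members in S181E, 5 in Y396E and 3 in RQ, against 37.9, 62.1 and 42% of all genes. For Y396E against S181E there were 4 such members in each treatment, against 32.2 and 51.6%, and against RQ 2 in control and 6 in arsenite, against 37.7 and 62.3%. Comparisons of the same treatment that have a group in common, such as the 3 mutants against wild-type in control, share its libraries and are not independent of each other. These are counts over 6 genes chosen by name, set beside the shares of all genes with no test, and in control the direction differed from gene to gene within S181E and Y396E. The median log2 fold change of the 6 was −0.12 in Y396E control, −0.24 in Y396E arsenite and 0.02 in S181E control, where the medians of all tested genes were 0.05, 0.01 and 0.05.

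Arsenite itself lowered most of the group in wild-type libraries. ARID3B fell by 1.11, HMGA2 by 0.95, NRAS by 0.92, IGF2BP3 by 0.68 and HMGA1 by 0.65 on the log2 scale (edgeR adjusted p between 2.5e-08 and 0.00026), and in all 5 no arsenite library overlapped a control library. IGF2BP2 gave −0.22 and was not called (edgeR adjusted p = 0.18), though it was without wild-type control replicate 2 (−0.35, edgeR adjusted p = 0.046). Of all tested genes, 67.3% were called in this comparison, 31.8% lower and 35.4% higher, and 68.1% did not overlap. The median of the 6 was −0.80 and that of all tested genes 0.03. The treatment and its own parental library moved together: the parental HMGA2 level was higher in arsenite (176 CPM) than in control (58.7 CPM), opposite to the mCherry libraries, with 1 library each and no test. As a share of the control mean, the arsenite mean of HMGA2 was 52.2% in wild-type, 48.8% in S181E, 41.1% in Y396E and 49.6% in RQ. For NRAS the shares were 53.3, 45.8, 42.9 and 48.1%, and for HMGA1 they were 64.0, 74.9, 71.7 and 71.5%. IGF2BP3 kept 62.8% in wild-type but 42.9% in S181E and 45.0% in Y396E, with RQ between them at 51.8%. ARID3B kept 46.7, 68.4, 63.1 and 41.4% in the same order, and no interaction of it was called. Summed epithelial markers moved the other way, from between 672 and 1195 CPM in control mCherry libraries to between 1548 and 2451 CPM in arsenite ones (2231 and 3523 CPM in the parental libraries), and 5 of 5 tested markers were called higher in wild-type arsenite. In Y396E arsenite, KRT19, KRT8 and KRT18 were called higher than in wild-type arsenite. Their part in the results was not tested.

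A wider list of let-7 targets held 28 further genes that let-7 is known to repress, 22 of them tested. In Y396E control 3 were lower and 4 higher than wild-type, beside 12.7 and 16.2% of all tested genes, and in Y396E arsenite 4 were lower and 4 higher, beside 19.4 and 13.1%. The lowest was E2F5, a transcription factor of the cell cycle, which averaged 22.3 CPM in wild-type control and 8.09 CPM in Y396E control, and 24.3 and 6.83 CPM in arsenite. Its log2 fold changes in Y396E were −1.46 and −1.80 (edgeR adjusted p = 4.3e-05 and 2.6e-06). CDC25A, the phosphatase that activates cyclin-dependent kinases, rose in Y396E control, from 25.0 to 50.9 CPM (log2 fold change 1.04, edgeR adjusted p = 6.7e-07), and CDK6, a kinase that drives entry into S phase, rose in S181E control from 165 to 346 CPM (1.08, edgeR adjusted p = 5.6e-06). CDC25A was also called higher in S181E control, RQ control and Y396E arsenite. CDK6 was also called higher in Y396E in both treatments and in S181E arsenite, and E2F5 lower in S181E arsenite. S181E control had 2 of the 22 lower and 7 higher (8 and 12.8% of all genes), S181E arsenite 2 and 2 (5.34 and 2.2%), RQ control 0 and 2 (2.83 and 3.51%) and RQ arsenite none (0.218 and 0.286%). In wild-type arsenite 12 of 22 fell and 4 rose, where 31.8 and 35.4% of all tested genes did, at a median of −0.31 on the log2 scale against 0.03 for all tested genes (DICER1 is also counted among the processing genes below). MYCN had no read in any mCherry library and CCND2 had 1.

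Of 10 listed genes that process let-7, 8 were tested. Against wild-type, 2 were lower in S181E control, 2 in Y396E control, 1 in RQ control and 2 in Y396E arsenite, and none was higher in any of the 6 comparisons. TUT4, the uridylyl transferase that tails pre-let-7 in the presence of LIN28, was lower in Y396E in both treatments: it averaged 55.0 against 76.6 CPM in control (log2 fold change −0.46, edgeR adjusted p = 0.0012) and its libraries lay between 33.1 and 34.9 CPM in Y396E arsenite against 59.0 and 59.8 CPM in wild-type arsenite (−0.77, edgeR adjusted p = 3.5e-06). TUT4 was also called lower in S181E control. XPO5, which carries pre-microRNAs out of the nucleus, was lower in all 3 mutants in control, by −0.27 in S181E, −0.30 in Y396E and −0.41 in RQ on the log2 scale, and DROSHA, which cuts the primary hairpin, was lower in Y396E arsenite (−0.39, edgeR adjusted p = 0.032). Without being called, XPO5 lay at 245 to 256 CPM in Y396E arsenite against 292 to 309 CPM in wild-type arsenite (−0.25). DIS3L2, the exonuclease that degrades tailed pre-let-7, lay the other way, at 42.2 to 47.7 CPM against 30.8 to 33.5 CPM (0.52, edgeR adjusted p = 0.051), as did DGCR8, the partner of DROSHA, at 19.9 to 24.7 CPM against 16.1 to 18.3 CPM (0.40, edgeR adjusted p = 0.089). In wild-type arsenite XPO5, DIS3L2, KHSRP and DROSHA rose and TUT4 and DICER1 fell. Among host transcripts of let-7 hairpins, MIR100HG averaged 116 CPM in wild-type control, close to the parental 111 CPM, and 37.5 CPM in wild-type arsenite against a parental 26.9 CPM. MIRLET7BHG was lower in the wild-type libraries (6.43 CPM in control, 2.38 CPM in arsenite) than in the parental ones (39.1 and 16.4 CPM). Mature microRNAs are too short for these libraries, so let-7 itself was not measured.

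Genes with more let-7 matches were lower in arsenite in wild-type libraries. Of 77 tested genes with at least 3 matches, 61.0% were called lower and 14.3% higher, and of 410 genes with an 8-base match 44.6% were lower and 23.2% higher, where 7037 genes with no match gave 29.2 and 37.5%. The median log2 fold change was −0.50, −0.24 and 0.09 in these groups. The 3′ UTR length moved with the number of matches, with medians of 7116, 3674 and 1249 bases, and its part was not tested. When Y396E was set against wild-type under arsenite, 23.4% of genes with at least 3 matches, 18.8% of those with an 8-base match and 18.5% of those with none were lower, and 7.79, 8.54 and 14.4% were higher, with median log2 fold changes of −0.11, −0.06 and 0.04. HMGA2, ARID3B and IGF2BP2 belong to the genes with at least 3 matches. In the main model IGF2BP2 was not called in wild-type arsenite, and ARID3B was not called in Y396E.

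The genes whose pattern was most like HMGA2, HMGA1, IGF2BP3, NRAS and ARID3B were found by the correlation of mean log2 CPM over the 8 mCherry groups, as a description. For HMGA2 they were RYBP (r = 0.990), SMURF2 (0.987), SLC9B2 (0.986), ZNF33B (0.985) and RPL41 (0.984). RYBP averaged 101 CPM in wild-type control and 73.4 CPM in Y396E control, a log2 fold change of −0.45, and its log2 fold change in Y396E arsenite was −0.94. RPL41, a ribosomal protein mRNA, covered a wider range, from 906 CPM in wild-type control and 193 CPM in Y396E control to 177 CPM in wild-type arsenite and 54.2 CPM in Y396E arsenite. Unlike HMGA2, RPL41 was slightly lower in RQ control (900.2 CPM) than in wild-type control, and the mean of RYBP in S181E control (104 CPM) was above wild-type. The closest to HMGA1 was PHC3 (0.988), to IGF2BP3 SLC35A3 (0.995), to NRAS CNOT7 (0.996) and to ARID3B RGS2 (0.990). Over 8 points that share libraries, depth and the step from control to arsenite, many genes reach such values, and over the 23 single libraries r was 0.971 for RYBP but 0.744 for RGS2.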

How the data were processed

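mCherry fusions were pulled down on RFP-trap beads, and directional libraries were made from the rRNA-depleted RNA. The authors aligned reads to hg38 with STAR 2.7.11b and the GENCODE release 46 annotation, and counted them on exons by strand with featureCounts of Subread 2.0.6 (per the file headers, strand setting 2). The deposited values are raw counts per gene for 25 libraries. By default featureCounts drops reads that map to several places. Symbols came from GENCODE release 44 by Ensembl identifier; 62541 of 63086 matched and 545 did not.

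From these counts, protein-coding genes (20044) were TMM-normalized, and 8734 of them, above 10 CPM in 11.5 or more of the 23 mCherry libraries, were tested in 1 model of 8 groups with edgeR 4.0.16 (quasi-likelihood test, Benjamini-Hochberg adjustment over all of them; limma 3.58.1, DESeq2 1.42.0, R 4.3.3). Python 3.11.15 with pandas 2.3.3 wrote the tables and matplotlib 3.10.9 the plots. The procedure was tested on simulated data. No pair of libraries held identical counts. Parental libraries entered no test. Seed matches came from the reference genome and GENCODE release 44 transcripts, and microRNAs from RefSeq. Sequences of the proteins were not used here.

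Replicate numbers are shared between groups. Among groups with 3 libraries each, same-numbered libraries deviated together (every correlation over 0.1) for S181E and wild-type in arsenite (0.29 to 0.40). They also did so for S181E and Y396E in control (0.12 to 0.57), so the pairing comes from the data and not from the labels. RQ arsenite, with only 2 libraries, also correlated over 0.1 with wild-type arsenite (0.15 to 0.21) and S181E arsenite (0.20 to 0.42). It was not counted as paired.

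Named genes were the 7 members, the bait, members of the other lists that were called (at most 3 in each direction per comparison), the closest genes by correlation, antisense genes, pseudogenes and let-7 host transcripts. VIL1, COL1A1 and similar markers served to check the cell line, and MYCN, CCND2 and LIN28A were named after their levels were seen. Some genes that this rule names are not reported here. Members and lists were chosen with earlier results of these data known. Alternatives were DESeq2 size factors, total counts, TMM from 3707 genes that did not exceed the parental level, filterByExpr (13417 genes), no filter (16940 genes), DESeq2's Wald test, only the groups compared, the replicate block and each library left out.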

Additional observations from a re-analysis of the deposited data

Results flagged for a closer look

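IGF2BP3 was the only one of the 6 tested genes whose response to arsenite differed between a mutant and wild-type by the test of the interaction. The interaction was −0.566 on the log2 scale for S181E (edgeR adjusted p = 0.033) and −0.469 for Y396E (edgeR adjusted p = 0.019). Both mutants exceeded wild-type by more in control than in arsenite. In RQ it was −0.27 and was not called (edgeR adjusted p = 0.44). The S181E value lost its call under 10 of 20 alternatives, among them leaving out S181E control replicate 1 or 3, S181E arsenite replicate 2 or 3, or any 1 wild-type arsenite library, with values from −0.60 to −0.52 in these cases. The Y396E value lost it under 5 of 20, among them leaving out Y396E control replicate 1 (−0.43), Y396E arsenite replicate 1 (−0.45) or wild-type arsenite replicate 1 (−0.43).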

How the results depend on the processing

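Of 84 log2 fold changes of single genes, 23 were called, and 15 of these kept call and direction under every alternative, the 6 of HMGA2 in Y396E among them. No called value changed sign, and 43 values changed sign where neither setting called them. Total counts moved the median of the whole table to 0.32 (log2) in Y396E control and 0.23 in Y396E arsenite, from 0.05 and 0.01, so a member's difference there is to be read against that shift.

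The number of members called moved as follows, and the cause was not tested. For Y396E against wild-type in arsenite it fell from 3 to 1 with DESeq2 size factors and to 1 with filterByExpr, and for the Y396E interaction from 1 to 0 with size factors and to 0 with no filter. For the S181E interaction it fell from 1 to 0 with TMM from genes not above the parental level, with no filter and with only the 2 lines in the model. Total counts gave 2 in place of 0 for RQ control and for S181E arsenite, and 3 in place of 1 for Y396E against RQ in arsenite, which became 2 with TMM from genes not above the parental level. DESeq2's Wald test gave 1 in RQ control and 1 in S181E arsenite. A model of the compared groups alone gave 1 in S181E control (3 otherwise), 2 in S181E arsenite, 1 for Y396E against S181E in control (2 otherwise) and 3 for Y396E against RQ in arsenite. With the replicate block the counts were 1 in RQ control, 2 in S181E arsenite and 3 for Y396E against RQ in arsenite. For the Y396E interaction the block gave 2, HMGA2 (−0.33, edgeR adjusted p = 0.024) joining IGF2BP3. Only S181E and wild-type in arsenite and S181E and Y396E in control were counted as paired, by the rule given above. Leaving out 1 library at a time, the counts ranged from 1 to 2 for Y396E against wild-type in arsenite, 1 to 2 for Y396E against S181E in control, and 0 to 1 for each of the S181E and Y396E interactions.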
